A study of Mus musculus with 8 samples.

Results

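Srf (serum response factor), its actin-sensing coactivators and the actin cytoskeleton genes that they control were followed in STHdh striatal cells after transfection with Bcl11b, a zinc finger transcription factor of striatal neurons. The set held 37 genes by name, and every probe of the deposited array table that carries one of these symbols was used, without regard to its signal. Of the 37 genes, 35 had a probe and these had 56 probes, out of 25697 probes carrying 18120 symbols. No probe carried the symbol Myl9 or Tagln2, a myosin light chain and a transgelin, and they are not analysed here. The comparison asks which of these genes changed their mRNA level with Bcl11b.

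STHdh is a conditionally immortalized mouse progenitor line from embryonic striatum, wild-type for the Huntington's disease gene according to the study's methods. One group (Bcl11b, n = 4) received the pcDNA3.1 expression plasmid carrying the beta isoform of mouse Bcl11b, and the other (mock, n = 4) received empty pcDNA3.1. The labels also call the mock cells wild-type. All cells were harvested 2 days after a transient transfection, and each of the 8 RNA samples was hybridized to 1 Illumina MouseRef-8 v2 array. The model is limited to 1 cell line with a plasmid promoter. Transfected and untransfected cells were not separated, so a change in few cells and a smaller change in all cells cannot be told apart. The only Bcl11b probe was not detected on any array, so these values do not show how much Bcl11b each culture carried.

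Srf is a transcription factor that binds a short DNA motif, the CArG box, and works with either of 2 families of partners. The myocardin-related factors, Mkl1 and Mkl2 (now named Mrtfa and Mrtfb), bind free actin monomers in the cytoplasm, and when monomers are used up in filaments they enter the nucleus and activate cytoskeletal genes with Srf. The ternary complex factors, such as Elk3, instead respond to growth factor signalling and drive immediate early genes such as Fos. Many of the cytoskeletal targets, among them Ctgf and Cyr61 (now Ccn2 and Ccn1), are also targets of Yap with Tead, a second pathway that responds to cell shape and tension.

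CArG boxes mark promoters that Srf can contact directly, and the promoter stretches of the detected members that hold one are printed here. A scan of the RefSeq promoter windows on GRCm38.p6, which reach from 250 bases before to 50 bases after each annotated start, found CArG boxes in 9 of 42 windows of the 32 members that have one (21.4%), and in 535 of all 32851 windows (1.63%). Only exact boxes were counted, which are CC and GG around a run of A and T. The box, read on both strands, is in capitals, with 20 bases on each side.
Srf, chr17:46556195-46556264, minus strand, boxes starting 82 and 62 bases before the start: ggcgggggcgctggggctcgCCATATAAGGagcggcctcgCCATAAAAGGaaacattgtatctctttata
Actg1, chr11:120348556-120348605, minus strand, 90 bases before the start: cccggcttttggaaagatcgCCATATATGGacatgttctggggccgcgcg
Cnn2, chr10:79988524-79988573, plus strand, 56 bases before the start: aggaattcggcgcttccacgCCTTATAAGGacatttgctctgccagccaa
Vcl, chr14:20929151-20929200, plus strand, 227 bases before the start: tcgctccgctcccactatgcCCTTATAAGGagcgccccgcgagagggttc
Fhl1, chrX:56779561-56779610, plus strand, 102 bases before the start: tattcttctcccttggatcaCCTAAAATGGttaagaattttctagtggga
Fhl2, chr1:43163963-43164012, minus strand, 31 bases before one of its starts: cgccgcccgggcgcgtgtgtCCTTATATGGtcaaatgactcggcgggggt
Fhl2 has a box in a second window, and the remaining boxes belong to Acta1 and Myl9, which were not detected and not on the array. No window was given for Actb, Actg2, Tagln, Ctgf or Thbs1. The Tead motif GGAATG, read on both strands, was in 12 of 42 member windows (28.6%) and in 14.7% of all windows. These matches describe the letters only, and a box with a mismatch or further from the start was not looked for.

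Every value in this text is a log2 of the quantile-normalized signal, with signals under 1 raised to 1, unless another scale is named. A probe was called detected on an array at a detection p-value under 0.01. Before normalization the array medians ran from 31.6 to 53.9 for mock and from 20.1 to 30.2 for Bcl11b, and 10121 to 10784 probes were detected per array. Of 8 genes taken as markers of medium spiny neurons, the main striatal neuron, 0 were detected, whereas the progenitor markers Nes, Sox2 and Vim were. Of 8 smooth muscle markers, Acta2, Smtn and Tagln were detected, and Myh11, Myocd, Des, Lmod1 and Cnn1 were not. The normalized signals of the 14 smooth muscle probes summed to between 27744 and 34176 on the mock arrays and between 33377 and 39946 on the Bcl11b arrays, so the groups overlapped. This sum includes the members Acta2 and Tagln, and its part in the results was not tested. Fibroblast markers were detected for 4 of 7 genes, skeletal and cardiac muscle markers for 1 of 8, and endothelial and glial markers for none. Pdgfra, a receptor of mesenchymal and glial progenitor cells, fell by 0.70 (SE 0.043, adjusted p = 0.00296 by limma) with groups that did not overlap. Pdgfrb was at -0.49 (SE 0.15, adjusted p = 0.309 by limma), Col3a1 at -0.87 (SE 0.42) and Col1a1 at 0.22 (SE 0.27) on their detected probes. The normalized signals of the fibroblast probes summed to between 2445 and 4268 on the mock arrays and between 2702 and 3685 on the Bcl11b arrays. The Sox2 probes were at -0.71 (SE 0.27) and 0.20 (SE 0.41), and the Nes probes at 0.43 (SE 0.13) and -0.0007 (SE 0.18). Vim was at -0.24 (SE 0.13) and at 0.48 after median scaling.

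The cytoskeletal program was strongly expressed in both groups. Of the 56 member probes, 48, from 30 genes, were detected on at least 1 array and 43, from 28 genes, on all 8. Members were among the brightest probes of the array: 22 of the 48 (45.8%) had a mean log2 signal of 12 or more, against 8.82% of all detected probes. The undetected genes were the muscle actins Acta1 and Actg2, the smooth muscle calponin Cnn1, the severing protein Gsn and the coactivator Mkl2, each with 1 probe. Tpm3 had 3 undetected probes beside a bright one.

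With Bcl11b, no member passed an adjusted p-value of 0.10 (limma, Benjamini-Hochberg over the whole array), where 0.981% of all 25697 probes did, and none did after median scaling, in which each array was divided by its median over probes detected on all arrays, where 1.01% did. At an unadjusted p-value of 0.05, the limma test called 4 of the 56 member probes (Pdlim7, Zyx, Tpm4 and the undetected Actg2), against 10.4% of all probes. Of the 48 detected probes, 3 were lower at that level and 0 higher, against 12.5% and 5.16% of all detected probes. Zyx and Actg2 also differed by at least 0.32 on the log2 scale, the study's fold limit, and so met a second rule that 9.02% of all probes met. The groups of 4 arrays did not overlap for 1 of the 48 detected member probes, Pdlim7, against 10.1% of all detected probes. Each of these member shares lies under that of the array as a whole. The order turned at the unadjusted level after median scaling, with 9 of 56 member probes (16.1%) against 11.1% of all probes, and without mock replicate 2, with 11 (19.6%) against 13.2%. It also turned with arrayWeights and, by at most 2 percentage points, with the replicate block and without mock replicate 3 or Bcl11b replicate 4.

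The direction of the remaining differences was mixed. Among the 48 detected member probes, 25 were higher and 23 lower with Bcl11b, with a median difference of 0.05, which includes dim probes that passed the detection limit mainly with Bcl11b. Among the 43 probes detected on all 8 arrays, 20 were higher and 23 lower with Bcl11b, with a median difference of -0.03, beside -0.03 over all 9360 such probes. Taking the brightest probe of each detected gene, 11 genes were higher and 19 lower, with a median of -0.05. After median scaling, 23 of the same 30 genes were higher and 7 lower, so the direction of the set as a whole depended on the scaling. The values for single genes below are therefore given with the median-scaled value wherever its direction differs.

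The 95% intervals give the sizes of change that the arrays could resolve. For 15 of the 28 members measured on all 8 arrays (53.6%), the whole interval lay inside a 1.5-fold change either way, against 39% of all probes detected on all arrays. For 23 members (82.1%) it lay inside a 2-fold change, against 78.1%. The widest interval was that of Thbs1, from -1.50 to 2.04. A p-value over the threshold therefore does not show that a gene was unaffected, but for most members changes past 2-fold fell outside the interval under quantile normalization.

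**Figure D1:**
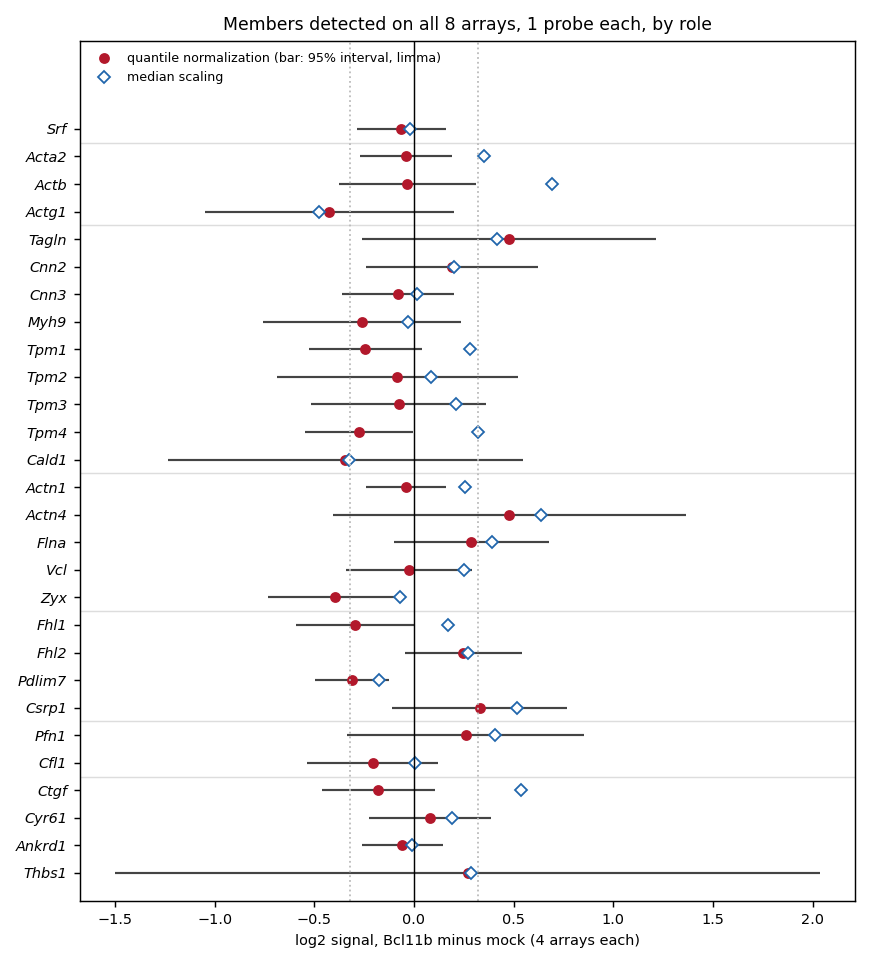
Log2 difference between Bcl11b and mock (4 arrays each) on the x axis for the brightest probe of each of the 28 members detected on all 8 arrays, grouped by role from top to bottom. Filled circles with bars are quantile-normalized differences with 95% intervals from limma, open diamonds are median-scaled differences, and dotted lines mark the fold limit of the second rule, 0.32 either way. The intervals of Pdlim7, Zyx and Tpm4 alone leave out 0, and the diamonds of bright genes such as Actb, Ctgf and Tpm4 lie to the right of 0 while their circles lie to the left.

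Srf itself, read by its bright probe (ILMN_2988299), had values of 11.20, 10.95, 11.32 and 11.19 on mock arrays 1 to 4 and 11.02, 11.27, 11.06 and 11.05 on Bcl11b arrays 1 to 4. The groups overlapped, and the difference of -0.06 (SE 0.093, 95% interval -0.29 to 0.16, limma adjusted p = 0.965) was smaller than the spread within either group. A second, dim Srf probe (ILMN_1242533) was detected on 1 mock array and on all 4 Bcl11b arrays. Its values were 2.77, 7.45, 5.02 and 5.29 in the mock group and 6.60, 7.02, 7.39 and 7.85 with Bcl11b, so the 1 high mock array, replicate 2, lay within the Bcl11b range. Its fitted difference was 2.08 (SE 0.96, unadjusted p = 0.0706, adjusted p = 0.542 by limma), and 3 of its 4 mock values were under the detection limit. Both Srf probes thus did not pass the adjusted threshold, and they differ in direction. The study itself names Srf among the genes whose expression change with Bcl11b it reports as borne out by real-time PCR. Its text does not give the direction of that change, and the PCR values were not used here.

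Mkl1, which carries the actin signal to Srf, was near the detection limit, with values of 5.19, 7.54, 5.89 and 6.15 in the mock group and 6.92, 6.85, 7.16 and 7.79 with Bcl11b. It was detected on mock array 2 and on all 4 Bcl11b arrays, the same pattern as the dim Srf probe. The difference was 0.99 (SE 0.52, unadjusted p = 0.104, adjusted p = 0.631 by limma). Without mock replicate 2 it was 1.43 with an unadjusted p = 0.00677 and an adjusted p = 0.153, and the dim Srf probe then had a difference of 2.85 with an unadjusted p = 0.00878 and an adjusted p = 0.172 (limma). So neither passed the adjusted threshold with or without that array. Mkl2 was at the floor of 0.00 on all 8 arrays.

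Among the actins, which are both the filament subunits and direct Srf targets, the cytoplasmic Actb and the smooth muscle Acta2 were among the brightest probes and Actg1 was dim. Actin genes are nearly identical in their coding sequence, and the probe sequences were not used here, so which actin a probe reads is uncertain. The brightest Actb probe (ILMN_1377923) had values of 14.60, 14.63, 14.18 and 14.63 in the mock group and 14.28, 14.33, 14.68 and 14.61 with Bcl11b. Its difference was -0.03 (SE 0.14, adjusted p = 1.00 by limma), and 0.69 with the opposite direction after median scaling. The brightest Acta2 probe behaved alike, at -0.04 (SE 0.095) and at 0.35 after median scaling. Other probes of these genes were on the higher side by both scalings. The Acta2 probes ILMN_2710353 and ILMN_2710354 were at 0.28 (SE 0.23) and 0.34 (SE 0.28), and at 0.51 and 0.62 after median scaling. The Actb probes ILMN_2617433 and ILMN_2698799 were at 0.35 (SE 0.28) and 0.23 (SE 0.11), and at 0.66 and 0.91 after median scaling. Actg1 was at -0.42 (SE 0.26, unadjusted p = 0.149 by limma) and at -0.48 after median scaling, with groups that overlapped. Actg2, the smooth muscle gamma actin, lay between 0.00 and 3.15 in the mock group and between 3.88 and 4.64 with Bcl11b. It was not well above background on any array, so no fold change is given beside its limma test (unadjusted p = 0.00377, adjusted p = 0.185).

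A pair of Actb probes varied far more between cultures than between groups. ILMN_2588055 had values of 0.55, 14.68, 11.47 and 14.61 on mock arrays 1 to 4 and 9.70, 9.02, 13.35 and 14.76 on Bcl11b arrays 1 to 4. ILMN_2846865 followed it closely, with 0.00, 14.60, 11.71 and 14.76 in the mock group and 9.88, 9.22, 13.48 and 14.52 with Bcl11b. In the deposited signals of ILMN_2588055, mock array 1 read 2.03 and mock array 2 read 25250. The other Actb probes stayed between 12.46 and 14.68 on all 8 arrays. Mock array 1 was not low for the brightest of them, but it was the lowest of the 8 arrays on ILMN_2617433, at 12.46, and on ILMN_2698799, at 14.08. Of all 25697 probes, these were the only 2 with a log2 signal of 12 or more on 1 array and no detection on another, a criterion chosen after their values were seen. The group differences of 1.38 (SE 3.5) and 1.51 (SE 3.6) are less than their errors, and the reason for the pattern was not tested.

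Other genes with several probes showed smaller disagreements of the same kind. Mock array 1 was the lowest of its group on the Acta2 probes ILMN_2710353 and ILMN_2710354, at 12.08 and 12.17, and the highest of its group on ILMN_2923445, at 13.80. On Cyr61, a matrix-bound signalling protein, the gap between probes ILMN_2794645 and ILMN_2710253 was 1.72 on mock array 1 and 0.42 on Bcl11b array 4, the widest and the narrowest of the 8 arrays. The 3 probes of Actn4 rose and fell together more closely. The gaps from its brightest probe to the others ran from 0.54 to 0.94 and from 2.30 to 2.85 over the arrays.

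**Figure D2:**
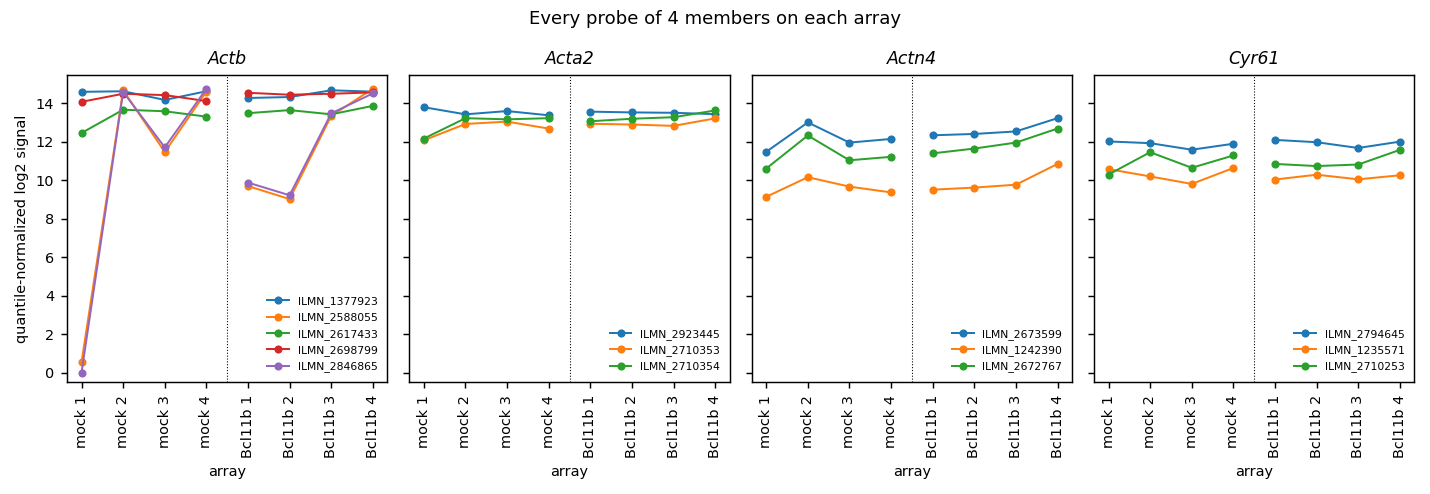
Quantile-normalized log2 signal on the y axis for every probe of Actb, Acta2, Actn4 and Cyr61 on each of the 8 arrays (x axis, mock left and Bcl11b right of the dotted line), 1 line per probe. A pair of Actb probes runs between 0.00 and 14.76 while the other 3 stay above 12. The 3 Actn4 probes run roughly in parallel with peaks on mock array 2 and Bcl11b array 4.

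The contractile and filament-binding members had 9 detected genes, and Tpm4 was the 1 with an unadjusted p-value under 0.05. Tpm4, a tropomyosin of non-muscle stress fibres, had values of 14.29, 14.36, 14.14 and 14.40 in the mock group and 13.83, 14.02, 13.94 and 14.31 with Bcl11b. The 3 lowest values were all Bcl11b arrays, and Bcl11b array 4 lay within the mock range. The quantile-normalized difference was -0.27 (SE 0.11, 95% interval -0.55 to -0.0036, unadjusted p = 0.0478, adjusted p = 0.474 by limma), 1.21-fold lower. After median scaling it was 0.32, and the unadjusted call was also lost with detection filters, with limma-trend and without any of mock replicates 1, 2 and 4 or Bcl11b replicates 1 to 3.

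The brightest probes of Tpm1, Tpm2 and Tpm3 were also on the lower side, by -0.24, -0.08 and -0.08, and on the higher side after median scaling, by 0.28, 0.09 and 0.21, none of them with an adjusted p-value under 0.10 (limma). Both dim Tpm2 probes were higher by either scaling, at 0.37 and 0.09 under quantile normalization. Myh9, the heavy chain of non-muscle myosin, was at -0.26 (SE 0.21) and the actin-binding Cald1 at -0.34 (SE 0.37) on its brighter probe. Without mock replicate 1, Myh9 was at -0.45 with an unadjusted p = 0.0222 and an adjusted p = 0.393 (limma). Without mock replicate 3, Tpm1 was at -0.35 with an unadjusted p = 0.0142 and an adjusted p = 0.357 (limma). Tagln, a smooth muscle marker and classic Srf target, was at 0.48 (SE 0.31, unadjusted p = 0.168, adjusted p = 0.713 by limma). Its values were 7.74, 6.53, 6.98 and 7.10 in the mock group and 7.72, 7.80, 7.74 and 6.99 with Bcl11b, so mock array 1 matched the high Bcl11b arrays. Without mock replicate 1 it was at 0.69, with an unadjusted p = 0.0405 and an adjusted p = 0.483 (limma). The calponins Cnn2 and Cnn3, which bind actin filaments, stayed between -0.08 and 0.20 on all their probes under both scalings.

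At focal adhesions, the sites where actin cables anchor to the matrix, Zyx was the 1 detected member to meet the second rule. Zyx, a LIM protein that senses tension on stress fibres, had values of 13.42, 13.48, 13.84 and 13.73 in the mock group and 13.01, 13.18, 13.19 and 13.51 with Bcl11b. The groups overlapped only through Bcl11b array 4, which lay above mock arrays 1 and 2. The difference was -0.40 (SE 0.14, 95% interval -0.73 to -0.06, unadjusted p = 0.0276, adjusted p = 0.385 by limma), 1.32-fold lower. It was -0.07 (unadjusted p = 0.568, limma) after median scaling, and leaving out any of mock replicates 3 and 4 or Bcl11b replicates 1 to 3 raised the unadjusted p-value to between 0.0618 and 0.0696 (limma).

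The crosslinkers and the other adhesion members had differences of either sign, none under an unadjusted p-value of 0.05 (limma). Actn4, an alpha-actinin, was at 0.35 to 0.62 on its 3 probes with standard errors of 0.37 to 0.45, and the crosslinker Flna at 0.29 (SE 0.16, unadjusted p = 0.121, adjusted p = 0.663 by limma). Without mock replicate 2, Flna was at 0.41 with an unadjusted p = 0.0213 (limma). The 2 brighter Actn4 probes were then at 0.77 and 0.97 with unadjusted p-values of 0.0393 and 0.0371 (limma). The same omission brought the Actb probe ILMN_2698799 to 0.30, Fhl2 to 0.32 and Cfl1 to -0.31. Their unadjusted p-values were 0.0192, 0.0394 and 0.0385 (limma). None of these probes passed the adjusted threshold. Tln1, the link from integrins to actin, was detected on 1 mock and 3 Bcl11b arrays, at 0.76 (SE 0.58). Actn1, the other alpha-actinin, and Vcl, which ties talin to actin, were at -0.04 (SE 0.083) and -0.03 (SE 0.13), and at 0.25 each after median scaling.

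Pdlim7, a PDZ and LIM protein of stress fibres, was the 1 detected member whose groups did not overlap under quantile normalization. Its values were 12.40, 12.28, 12.58 and 12.32 in the mock group and 12.08, 12.09, 11.97 and 12.19 with Bcl11b. Every Bcl11b array lay under every mock array. The difference was -0.31 (SE 0.077, 95% interval -0.50 to -0.13, unadjusted p = 0.00582, adjusted p = 0.218 by limma), 1.24-fold lower. The unadjusted call held with each array left out, at -0.25 to -0.35, and was lost after median scaling, at -0.17 (unadjusted p = 0.132, limma), where the Pdlim7 groups overlapped. Under that scaling the groups did not overlap for Flna, Ctgf, the Acta2 probes ILMN_2710353 and ILMN_2710354 and the Actb probes ILMN_2617433 and ILMN_2698799, all higher with Bcl11b. The share of all probes without overlap under that scaling was not counted, so this list is not read as particular to the members. Of all detected probes with a mean log2 signal from 10 to 12, 51.9% were higher under it. The shares were 74.4% from 12 to 13 and 94.7% at 13 or more.

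The other LIM members went both ways. Fhl1, a muscle-related LIM protein, was at -0.30 (SE 0.12, unadjusted p = 0.0509, adjusted p = 0.483 by limma) and -0.19 (SE 0.15) on its probes, and at 0.17 and 0.24 after median scaling. Without Bcl11b replicate 4 these were -0.40 with an unadjusted p = 0.00303 and -0.31 with an unadjusted p = 0.0191, with adjusted p-values of 0.149 and 0.285 (limma). Fhl2, a LIM cofactor that competes with Mkl1 for Srf, was at 0.25 (SE 0.12, unadjusted p = 0.0845, adjusted p = 0.584 by limma) and at 0.27 after median scaling. Csrp1, which binds alpha-actinin, was at 0.33 (SE 0.18) and at 0.52 after median scaling, where its unadjusted p-value was 0.0174 and its adjusted p-value 0.303 (limma). The turnover genes complete the cytoskeletal members: Pfn1, which loads actin monomers, was at 0.26 (SE 0.25) and 0.19 (SE 0.34) on its probes, Cfl1, which severs filaments, was at -0.21 (SE 0.14) and at 0.00 after median scaling, and Gsn was at the floor.

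**Figure D3:**
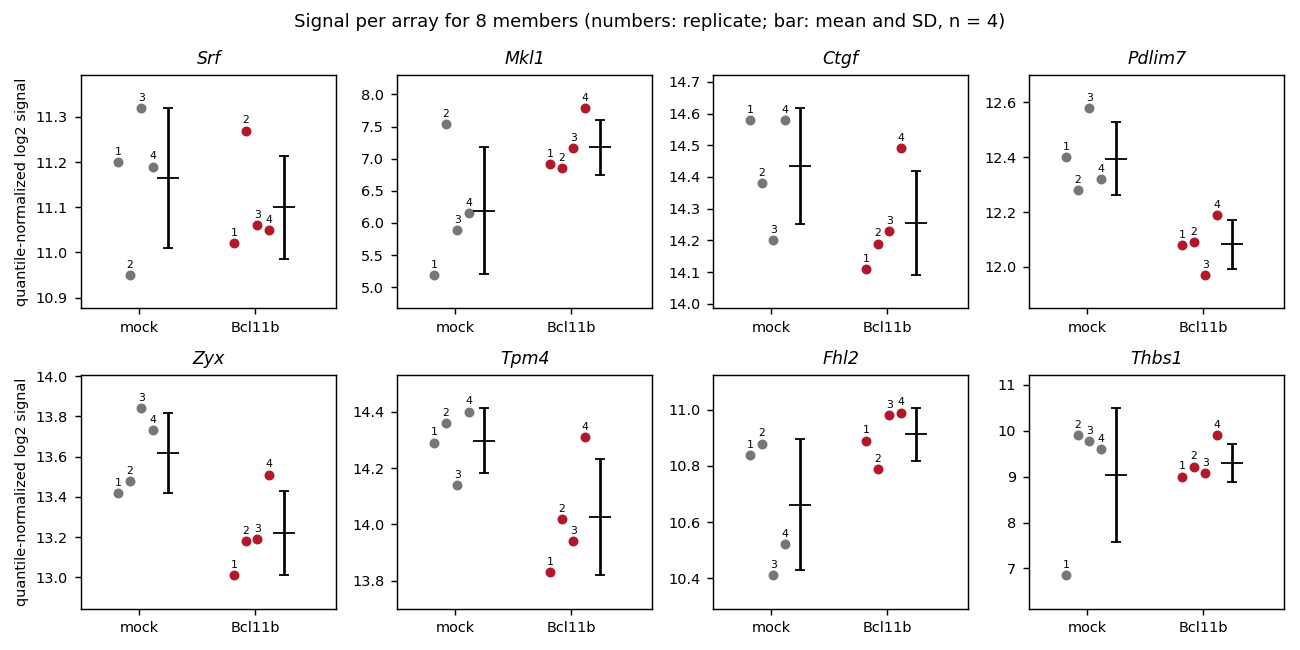
Quantile-normalized log2 signal on the y axis (a separate scale in each panel) of the brightest probe of 8 members in the mock and Bcl11b groups, with each array as a numbered point and the mean and SD of the 4 arrays as bars. Only the Pdlim7 groups do not overlap. Bcl11b array 4 is the highest of its group for Mkl1, Ctgf, Pdlim7, Zyx, Tpm4, Fhl2 and Thbs1, and mock array 1 stands far below the rest for Thbs1. Under median scaling the Ctgf and Tpm4 differences turn positive.

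Of the targets that Srf and Yap share, none had an unadjusted p-value under 0.05 (limma, quantile normalization). Ctgf, a secreted matricellular protein and a standard readout of Yap activity, had values of 14.58, 14.38, 14.20 and 14.58 in the mock group and 14.11, 14.19, 14.23 and 14.49 with Bcl11b, a difference of -0.18 (SE 0.12, unadjusted p = 0.174, adjusted p = 0.721). After median scaling it was 0.54 with an unadjusted p = 0.00707 and an adjusted p = 0.215 (limma). Cyr61 was at 0.08 (SE 0.13) on its brightest probe and at -0.15 and 0.07 on the others. Ankrd1, a muscle and stress-responsive nuclear protein, was at -0.06 (SE 0.084) and -0.27 (SE 0.14). Without mock replicate 3 the latter was at -0.36 with an unadjusted p = 0.0258 and an adjusted p = 0.435 (limma). Thbs1, a secreted matrix protein, rested on 1 array. Its values were 6.85, 9.90, 9.77 and 9.60 in the mock group and 9.00, 9.22, 9.07 and 9.91 with Bcl11b, and the difference of 0.27 (SE 0.73) was -0.45 without mock replicate 1.

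The 6 detected members with a CArG box in the window, printed above, had differences from -0.42 to 0.25, with 2 higher and 4 lower and none under an unadjusted p-value of 0.05 (limma). The 20 detected members whose windows hold no exact box had 7 higher and 13 lower, 3 of them under 0.05. Of all detected probes, 12.5% were lower and 5.16% higher at that level. A window in the set without a box may hold one with a mismatch. After median scaling the counts were 4 higher and 2 lower with a box and 15 higher and 5 lower without, so the direction turned in both sets.

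The shift under median scaling varied with brightness, for members and for all other probes. Under quantile normalization the median difference of all probes stayed between -0.04 and 0.01 at every brightness. Under median scaling it was -0.04 for detected probes with a mean log2 signal under 8, 0.14 for those from 12 to 13 and 0.35 for those of 13 or more, where 94.7% of all probes were higher. The 14 member probes of 13 or more had a median of 0.30 there and -0.06 under quantile normalization. After median scaling 38 of the 48 detected member probes were higher and 10 lower, with a median of 0.28, beside 51.4% higher and a median of 0.01 over all detected probes. Of the 48, 8 were higher at an unadjusted p-value of 0.05 (limma), where 6.65% of all detected probes were. Among member probes at 12 or more this was 7 of 22 (31.8%), against 19.9% of all detected probes that bright.

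Before any scaling, the signals of the brightest Actb probe and of Ctgf overlapped between the groups, and those of Tpm4, also bright, did not. Over probes detected on all arrays the median deposited signal was 728 to 1271 on the mock arrays and 477 to 747 on the Bcl11b arrays, while the brightest Actb probe read 20378 to 25031 in the mock group and 20473 to 26932 with Bcl11b. Ctgf read 16796 to 23552 with Bcl11b and 19848 to 24030 in the mock group. Tpm4 read 19037 to 21125 in the mock group and 12790 to 18820 with Bcl11b. So the deposited ranges of Actb and Ctgf, but not of every bright member, overlapped on arrays whose typical signal differed. The highest signal of any probe lay between 23436 and 30687 on every array.

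**Figure D4:**
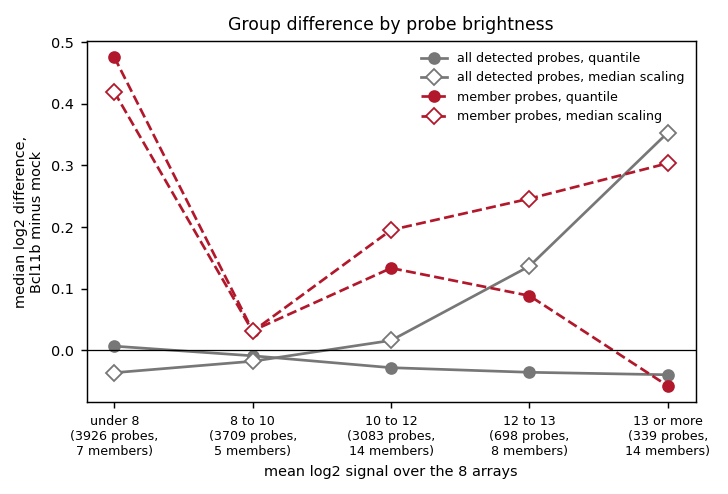
Median log2 difference between Bcl11b and mock on the y axis for detected probes in 5 classes of mean log2 signal (x axis, with the number of all probes and of member probes), for all detected probes (grey) and member probes (red) under quantile normalization (filled) and median scaling (open). The grey quantile line stays near 0, whereas the grey median-scaled line climbs to 0.35 for the brightest probes, with members at 0.30. The class under 8 holds 7 member probes, some of them detected on few mock arrays.

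Members varied among cultures of 1 group about as much as other genes. Over the 43 member probes detected on all arrays, the median within-group SD was 0.26, as it was over all 9360 such probes, and the median absolute difference between groups was 0.24 against 0.22. The range of the 4 mock arrays exceeded the group difference for 41 of the 43 (95.3%), against 90.6% of all probes. Within the Bcl11b group, array 4 was the highest for 29 of the 43 member probes, and it was the highest for 50% of all probes. In the mock group, array 1 was the lowest for 18 of the 43 member probes, against 29.9% of all probes, and the highest for 13, against 27.4%. Array 2 was the highest for 17 of the 43, against 25.1% of all probes.

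Arrays of opposite groups shared part of this variation. Over the 43 member probes, the deviations of mock array 2 and Bcl11b array 4 from their group means correlated at 0.68, and those of mock array 1 and Bcl11b array 3 at 0.55. Mock array 1 and Bcl11b array 4 correlated at -0.68. Over all 9360 probes the same pairs were at 0.56, 0.51 and -0.77. These correlations describe 43 probes that share arrays and several genes, and deviations within a group of 4 are pulled apart by their common mean. Actn4, Cald1, Thbs1 and the Cyr61 probe ILMN_2710253 were high in their groups on both mock array 2 and Bcl11b array 4, while both Pfn1 probes, 2 of the 3 Tpm2 probes and Tagln were low on Bcl11b array 4.

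**Figure D5:**
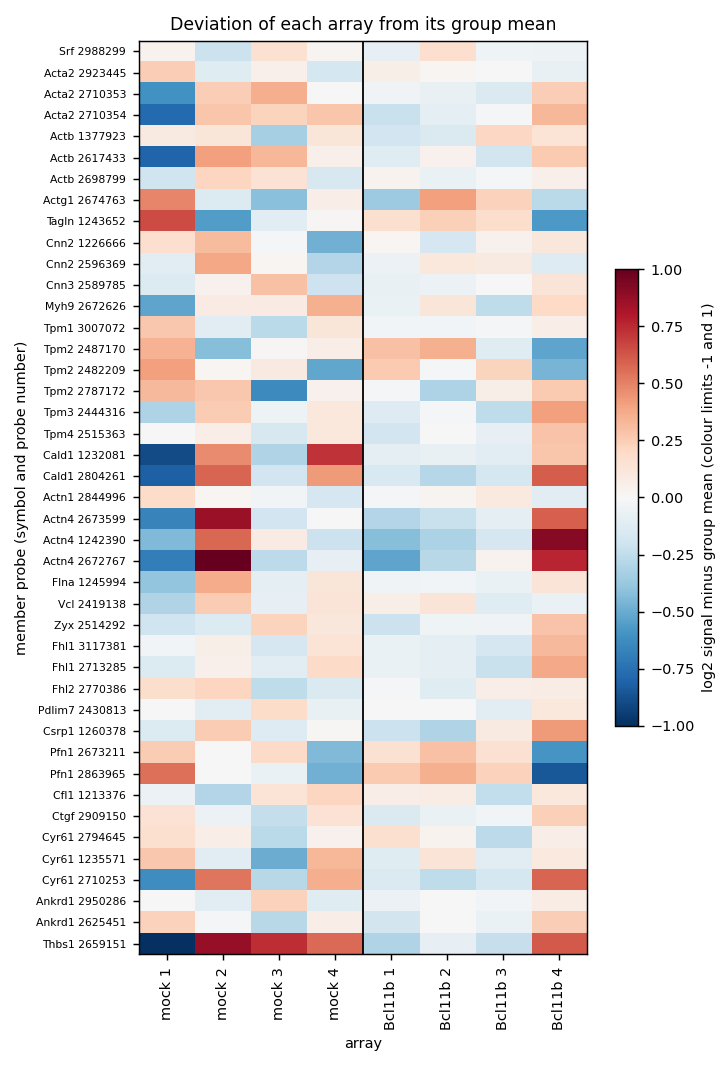
Deviation of each array (x axis) from the mean of its group, in log2 units by colour with limits at -1 and 1, for the 43 member probes detected on all arrays (y axis). The columns of mock array 1 and Bcl11b array 4 carry the strongest colours and are largely opposite, and the columns of mock array 2 and Bcl11b array 4 are largely alike.

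The other genes of the pathway were read from lists of 111 genes with 174 probes, 118 of them detected. At an adjusted p-value of 0.10, 1 probe was called (limma). By the second rule, 3 were higher and 14 lower, 17 of 174 beside the 9.02% of all probes, of which 3.2% were higher and 5.81% lower. The groups did not overlap for 2 higher and 7 lower of the 118 detected probes, beside 10.1% of all detected probes. Lack of overlap was thus no more common in these lists than on the array. Each probe called in these lists and named here kept its direction after median scaling. In the growth factor branch of Srf targets, Fos, the early-response partner of Jun, rose by 1.60 (SE 0.13, adjusted p = 0.0137 by limma), from 7.29 to 7.86 in the mock group to 8.96 to 9.26 with Bcl11b. The actin branch had no member past that threshold, and a difference between the branches was not tested. Mcl1, a survival protein of the same list, was at -0.45 (SE 0.18, adjusted p = 0.478 by limma), and the remaining 4 detected genes of the list did not pass an unadjusted p-value of 0.05. Among these, Egr1, an early-response zinc finger factor, was at 0.21 (SE 0.15). After median scaling it was at 0.43 with an unadjusted p = 0.00213, an adjusted p = 0.143 (limma) and groups that did not overlap. Of all detected probes as bright as Egr1, with a mean log2 signal from 12 to 13, 74.4% were higher under that scaling.

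Upstream of the members, the ternary complex factor Elk3 was at -0.32 (SE 0.11) and the kinase Limk2, which inactivates cofilin, at -0.58 (SE 0.14, unadjusted p = 0.00441, adjusted p = 0.194 by limma) with groups that did not overlap. Another Elk3 probe, detected on all arrays, was at 0.00 (SE 0.46). Arhgef1, a guanine nucleotide exchange factor, was at -0.88 (SE 0.25, unadjusted p = 0.0106, adjusted p = 0.277 by limma) with groups that did not overlap on ILMN_2920752, but at 0.12 (SE 0.24) with groups that overlapped on ILMN_2920753, which was detected on all arrays as well. Of 26 probes of the Arp2/3 complex, which branches filaments, and its activators, Wasf1 was called at -0.33 (SE 0.067, unadjusted p = 0.00213 by limma).

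Among 28 probes for monomer binding, capping and severing, the second rule called Pfn2, a neuronal profilin, at -0.40 (SE 0.098), and Cfl2, the muscle cofilin, on both of its probes. Another Pfn2 probe, detected on all arrays, was at -0.14 (SE 0.10) with groups that overlapped. The probes of Cfl2 differed in fitted direction. ILMN_1241871 was at -0.63 (SE 0.20). ILMN_1249976 was higher with Bcl11b in the fit (adjusted p = 0.343 by limma), but was detected on no mock array and on only 3 Bcl11b arrays. Counted from the dimmest detected signal of each mock array, the smallest difference was 1.00-fold, which is no change. Of 36 probes of other crosslinkers and adhesion proteins, 4 were lower and none higher, on an array where more probes were lower (5.81%) than higher (3.2%) by this rule. They were both probes of Tgfb1i1, a paxillin relative that acts at adhesions, at -0.82 (SE 0.27) and -0.92 (SE 0.32), with Pdlim2 at -0.45 (SE 0.16) and Lasp1 at -0.39 (SE 0.10). The remaining detected probes of Pdlim2 were at -0.09 to -0.38, and those of Lasp1 at -0.12 (SE 0.27) and 0.23 (SE 0.37).

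In the Yap and Tead list, 1 of 19 probes was higher and 2 were lower by the second rule, 1 of the latter not detected. Yap1 was at 0.38 (SE 0.13, adjusted p = 0.362 by limma) and Sav1, a scaffold of the kinases that restrain Yap, was at -0.48 (SE 0.10, unadjusted p = 0.00309, adjusted p = 0.176 by limma) with groups that did not overlap. Under median scaling Sav1 was at -0.38 with an adjusted p = 0.0986 (limma). None of the 14 probes of other myosins and smooth muscle contractile genes was called by any of these rules.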

How the data were processed

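The study speaks of 4 different sets of transfected cells, without saying whether a set holds both a mock and a Bcl11b culture. The samples were therefore not paired, and p-values set the group difference against the spread of the 4 samples within each group. The authors deposited 1 intensity per probe, made with GenomeStudio, background-subtracted and without normalization between arrays, and they deposited a detection p-value beside it. Quantile normalization and limma follow the study's methods. The floor of 1 set before the log2 was chosen here, and it puts many dim values at 0. All 25697 probes were fitted with limma (3.58.1, in R 4.3.3; lmFit, then eBayes), with no covariate. Benjamini-Hochberg adjustment covered the whole array. Calls used an adjusted p-value under 0.10, or the second rule, which joins an unadjusted p-value under 0.05 to a log2 difference of at least 0.32. The fit was checked on simulated data with independent noise, without signals at the floor and without deviations shared between arrays. The check does not cover these features of the data.

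The members and lists were chosen with earlier results of these data known. Each gene was represented by its brightest probe. All members are named, with array values at least for Srf, Mkl1, Mkl2, Actb, Ctgf and those under an unadjusted p-value of 0.05, and from each pathway list up to 4 genes of smallest p-value among those that met the second rule and were detected on at least 4 arrays. The dim Cfl2 probe was named after its values were seen. The count of 1 pathway list is not reported here. The tests were repeated with scaling by the array median, with neqc, after adding an offset of 16, on probes past a detection p-value of 0.01 or 0.05 on 4 or more arrays, with replicate numbers blocked, with a robust variance trend, with arrayWeights, with 1 probe per symbol, and without each array in turn. Precision is limited by the number of arrays. Promoter windows are those of RefSeq (GRCm38.p6).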

Additional observations from a re-analysis of the deposited data

Results flagged for a closer look

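In 12 of 96 groups of 4 arrays (48 detected member probes in 2 groups), the highest or lowest array lay apart from the other 3 by Dixon's criterion, which chance meets in about 1 of 20 groups. Of these, 7 fell on Bcl11b replicate 4. That array was at 9.73 and 9.75 on the Cald1 probes ILMN_1232081 and ILMN_2804261, at 11.58 on the Cyr61 probe ILMN_2710253 and at 13.82 on Tpm1, each time the highest of its group. It was at 11.67 and 11.17 on the Pfn1 probes ILMN_2673211 and ILMN_2863965 and at 6.99 on Tagln, each time the lowest.

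The remaining 5 were spread over other arrays. Mock replicate 1 was low on Thbs1, at 6.85, and on the Acta2 probe ILMN_2710354, at 12.17. Mock replicate 3 was low on the Actb probe ILMN_1377923, at 14.18. Bcl11b replicate 3 was low on Cfl1, at 12.39, and Bcl11b replicate 2 was high on the Srf probe ILMN_2988299, at 11.27.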

How the results depend on the processing

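No member passed the adjusted threshold under 8 of 9 alternative settings with all arrays. The exception was arrayWeights with 2, Pdlim7 and the undetected Actg2, and leaving out 1 array gave 0 to 1 (Actg2, without mock replicate 3). Member probes under an unadjusted p-value of 0.05 (4) became 9 with median scaling, 7 with the replicate block (12.5% against 10.8% of all probes), 13 with arrayWeights (23.2% against 15.7%) and 2 to 11 with an array left out (11 without mock replicate 2, 7 without Bcl11b replicate 4 and 2 without mock replicate 4 or Bcl11b replicate 1, 2 or 3). By the second rule, which adds the fold limit, 2 became 8 with median scaling, 7 with arrayWeights and 1 to 8 with an array left out. The median difference of the 48 detected member probes (0.0525) moved to 0.2772 with median scaling, and lay between -0.0048 and 0.1584 with an array left out. Of the other pathway probes, 1 passed the adjusted threshold (Fos), 2 with median scaling, 0 with the replicate block, 6 with arrayWeights and 1 to 4 with an array left out. By the second rule 17 became 14 to 25 with all arrays (25 with arrayWeights) and 10 to 23 with an array left out.

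Median scaling turned 13 of 48 detected member probes to higher: Acta2 ILMN_2923445 (0.35), Actb ILMN_1377923 (0.69), Actn1 (0.25), Cfl1 (0.0047), Cnn3 (0.013), Ctgf (0.54), Fhl1 (0.17 and 0.24), Tpm1 (0.28), Tpm2 ILMN_2487170 (0.087), Tpm3 (0.21), Tpm4 (0.32) and Vcl (0.25). ArrayWeights turned 7: Acta2 ILMN_2923445 (0.018), Actb ILMN_2588055 (-1.04) and ILMN_2846865 (-0.91), Actn1 (0.0064), Cyr61 ILMN_2710253 (-0.13), Thbs1 (-0.14) and Tpm2 ILMN_2487170 (0.12). The neqc, offset, filter, block and trend settings turned none of these 48.

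Leaving out 1 array gave ranges that crossed 0 for Acta2 ILMN_2923445 (-0.098 to 0.044), Actb ILMN_1377923 (-0.15 to 0.026), ILMN_2588055 (-1.92 to 2.84) and ILMN_2846865 (-1.95 to 2.98), Actn1 (-0.097 to 0.024), Ankrd1 ILMN_2950286 (-0.10 to 0.019), Cald1 ILMN_2804261 (-0.31 to 0.15), Cnn2 ILMN_2596369 (-0.069 to 0.16), Cnn3 (-0.15 to 0.020), Cyr61 ILMN_2710253 (-0.13 to 0.25) and ILMN_2794645 (-0.0092 to 0.17), Thbs1 (-0.45 to 0.56), Tpm2 ILMN_2487170 (-0.23 to 0.092) and ILMN_2787172 (-0.12 to 0.20), Tpm3 (-0.21 to 0.0073) and Vcl (-0.13 to 0.061). The cause of these changes was not tested.

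Replicate numbers did not pair the arrays: over 9360 probes, deviations of same-numbered arrays correlated at 0.68, -0.63, 0.18 and 0.70 for numbers 1 to 4. With the number as a replicate block, 45 probes of the whole array passed the adjusted threshold against 252 without it, and Fos had a difference of 1.60 with an adjusted p = 0.152 (limma).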
